A study of Mus musculus with 4 samples.

Results

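Places where endogenous Sox2 and the tagged protein Halo-Sox2 were both called were examined in D3 mouse embryonic stem cells. They were the endogenous Sox2 peaks whose centre lay within 500 bp of the centre of a Halo-Sox2 peak. Before that, peaks on chrM and on unplaced contigs were dropped, as were 11 stretches of 100 kb in which a list held 15 or more peaks. Of the 6364 endogenous peaks kept, 1897 met the rule, which is 29.8% of the list, and they are called shared peaks here. They were thus chosen by the measured positions of both proteins. The other 4467 endogenous peaks had no Halo-Sox2 centre that near.

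There were 4 ChIP-exo libraries, 1 in each group, all from D3 cells. Halo-Sox2D is a HaloTag fusion of a shortened Sox2 that keeps residues 1 to 120, and 13241 of its 13833 peaks were kept. Halo-Sox2M is a fusion with changes labelled M47G, F50 and M51G, with no replacing residue given for F50, and 954 of its 1711 peaks were kept. Halo-Sox2 is the fusion without these changes, and 5829 of its 6558 peaks were kept. Fusions were isolated on HaloLink resin, and endogenous Sox2 with an antibody against Sox2, which gave 7153 peaks. The sources used here do not give the promoter, expression level or clone of the cells with fusions. Read depth is unknown, the lists carry no peak height, and neither an input nor a resin control was used here. With 1 library per group no difference between libraries had a replicate check, no test between them was run, and every interval is a 95% Wilson interval that covers counting error only.

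Sox2 binds the minor groove of DNA through its HMG box and bends it, and in embryonic stem cells it often binds beside Oct4, the product of Pou5f1, on joined Sox and octamer sequences. Together they hold the pluripotent state by acting at enhancers of genes such as Nanog and of their own genes. In ChIP-exo an exonuclease trims the isolated DNA up to the crosslinked protein, so a peak marks a border of a few bases. HaloTag is a protein tag that bonds covalently to its resin, so washes can be harsher than with an antibody.

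The promoter windows of 20 genes held shared peaks, and 5 stretches are shown because each has a Sox core on or near a shared peak. A window runs from 250 bases before to 50 bases after an annotated start. The sequences are from RefSeq, build GRCm38.p6, and each runs 5′ to 3′ along its gene's strand. Each covers the shared peaks with up to 40 bases on both sides and stops before the gene. Capitals mark the Sox cores CATTGT (with a following T where there is one) and CTTTGT, of which CTTTGT was added after the values were seen, and the joined Sox-octamer element, which is CATTGT followed after any base by ATGCAAA, on either strand. The stretches are from Nanog (chr6:122707371-122707488, plus strand), Neurog1 (chr13:56252181-56252261, minus strand), Stat3 (chr11:100939684-100939770, minus strand), Mobp (chr9:120149571-120149697, plus strand) and Fbxo27 (chr7:28692636-28692720, plus strand).
Nanog: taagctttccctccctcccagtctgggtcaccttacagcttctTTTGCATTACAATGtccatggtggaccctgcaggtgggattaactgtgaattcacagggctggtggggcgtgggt
Neurog1: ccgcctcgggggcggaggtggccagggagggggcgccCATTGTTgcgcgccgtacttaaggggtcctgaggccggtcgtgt
Stat3: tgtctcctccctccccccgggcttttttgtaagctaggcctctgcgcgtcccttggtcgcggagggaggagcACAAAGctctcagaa
Mobp: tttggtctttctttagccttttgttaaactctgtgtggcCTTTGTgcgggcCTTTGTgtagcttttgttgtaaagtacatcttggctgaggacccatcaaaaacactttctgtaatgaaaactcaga
Fbxo27: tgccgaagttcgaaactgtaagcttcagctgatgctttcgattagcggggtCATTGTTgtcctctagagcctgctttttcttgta

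Nanog, a homeodomain factor of the pluripotent state, was the gene with most shared peaks in its window. The joined element lay on the minus strand with its outermost base 75 bases before the start, and a shared peak at 122707411 to 122707422 overlapped it. The next Halo-Sox2 centre was 5.5 bp from the centre of that peak. The other Nanog peaks were at 122707443 to 122707452, at 122707457 to 122707475 and, inside the gene, at 122707585 to 122707589. None had a Halo-Sox2D centre within 500 bp, the nearest being 1396 bp from the first peak. Of 32851 promoter windows in the table, 2 (0.00609%) held the joined element in these letters, and both were the overlapping windows of Nanog.

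At Neurog1, a proneural bHLH factor gene, a shared peak centred 33.5 bases before the start, at 56252206 to 56252221, overlapped CATTGTT. A Halo-Sox2D centre lay 9 bp and a Halo-Sox2 centre 0.5 bp away. At Stat3, the factor through which LIF signals, the shared peak had a Halo-Sox2D centre at 3.5 bp and a Halo-Sox2 centre at 10.5 bp, and the nearest core, CTTTGT, was 26 bp away. At Mobp, which encodes a myelin protein, a peak overlapped the first CTTTGT and both peaks had a Halo-Sox2D centre within 25 bp. At Fbxo27, an F-box protein gene, CATTGTT was 7 bp from the peak. Kdm3a, a histone demethylase gene, had a shared peak 186 bases before a start inside the gene and no Sox core in the stretch around it. The other named promoters were those of Cenpl, Cnpy1 and Gm14393 with 2 shared peaks each, and of Dhx32, Phb and Ppp1r18 with 1 each. The windows of Cenpl, Phb and Gm14393 held neither CATTGT nor CTTTGT. Those of Cnpy1 and Dhx32 held CTTTGT, and those of Ppp1r18 held both cores.

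The share of windows with the core CATTGT was highest where there was a shared peak. CATTGT stood in 8 of 22 windows with a shared peak (36.4%, interval 19.7 to 57.0%), in 33 of 134 windows with other endogenous peaks only (24.6%, 18.1 to 32.6%), in 22 of 217 with Halo-Sox2 peaks only (10.1%, 6.79 to 14.9%) and in 12.6% of all windows. CATTGTT, which contains it, stood in 3 of the 22, in 15 of the 134 and in 3.78% of all windows. AACAAT, which overlaps CATTGTT read on the other strand, stood in 5, in 28 and in 10.7% of all. The octamer ATGCAAAT stood in 2, in 8 and in 1.74% of all. CTTTGT and ATGCAAA, both added after the values were seen, stood in 9 and 6 of the 22 windows, against 18.7% and 4.63% of all windows. Within 61 bases centred on the peak, CATTGT or CTTTGT was found at 12 of 24 shared peaks (50%, 31.4 to 68.6%), 34 of 121 other endogenous peaks (28.1%, 20.9 to 36.7%) and 22 of 169 Halo-Sox2 peaks with no endogenous peak (13.0%, 8.76 to 18.9%), beside 6.26% of stretches of that length in all windows. The intervals of shared and other endogenous peaks overlap, and those of shared peaks and Halo-Sox2 peaks with no endogenous peak do not. Some of the 24 shared peaks lie close together in 1 window, as at Nanog, and are not independent, so these intervals are too narrow. A match of letters describes the sequence and is not a measured site, and overlapping windows of 1 gene share their sequence. Among the 8 windows with a shared peak and CATTGT, Nanog and Ppp1r18 each count with 2 overlapping windows that hold the same site. The interval takes no account of this.

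Shared peaks also stood beside the main microRNA clusters of embryonic stem cells. These hairpins were chosen after the values were seen. Of 1005 hairpins in the RefSeq table, 19 (1.89%) had a shared peak within 5 kb and 18 (1.79%) another endogenous peak, and 13 of the 19 were in 2 clusters, that of miR-302 and miR-367 (5 hairpins) and that of miR-290 (8 hairpins). Hairpins of a cluster share the same peaks and are not independent. Mature sequences, also from RefSeq GRCm38.p6, are shown because both clusters and Mir92b, a further hairpin with a shared peak, carry common seeds, the bases that pair with target RNAs, here bases 2 to 8 in capitals.
miR-302b-3p: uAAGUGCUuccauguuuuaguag
miR-302d-3p: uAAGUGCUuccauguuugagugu
miR-294-3p: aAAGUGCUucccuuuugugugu
miR-295-3p: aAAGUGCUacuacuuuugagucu
miR-367-3p: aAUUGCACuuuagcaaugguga
miR-92b-3p: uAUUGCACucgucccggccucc

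The miR-302 and miR-290 cluster members shown share the seed AAGUGCU, and miR-367-3p shares AUUGCAC with miR-92b-3p. Other members of these clusters have other seeds, such as AGUGCUU in miR-302c-3p and AAGUGCC in miR-290a-3p. At the miR-302 and miR-367 cluster (chr3:127545228-127545807) the shared peak lay at 127544796 to 127544802, and the 5 Halo-Sox2 peaks within 5 kb of the cluster lay between 127544743 and 127545002. At miR-290 (chr7:3218626-3220841) shared peaks lay on both sides, at 3213758 to 3213774 and at 3221768 to 3221779, with 3 Halo-Sox2 peaks. No Halo-Sox2D or Halo-Sox2M peak was listed within 5 kb of either cluster. At Mir92b the shared peak was 0.286 kb from the hairpin.

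The centres of the 2 proteins lay close together at most shared peaks, well inside the limit of the rule. The median distance to the nearest Halo-Sox2 centre was 33.5 bp, with quartiles of 12 and 72 bp. It was at most 10 bp at 428 peaks (22.6%), at most 50 bp at 1177 (62.0%) and at most 100 bp at 1589 (83.8%), and over 250 bp at 70 (3.69%). The Halo-Sox2 centre was at the higher coordinate for 932 peaks, at the lower for 956 and at the same position for 9, so neither side was preferred. The 2 peaks overlapped by at least 1 bp at 404 shared peaks (21.3%). These distances chose the peaks and are given as a description.

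Few peaks stood near the limit. Between 400 and 500 bp there were 17 shared peaks, and 23 other endogenous peaks lay over 500 and up to 600 bp from Halo-Sox2. The last ones inside were beside Sox2 (500 bp), Slc44a1 (496.5 bp), Zfp990 (492 bp), Creb3l2 (492 bp) and Tspan2 (481.5 bp). The first ones outside were beside Dlgap1 (500.5 bp), Spry4 (508.5 bp), Fam81a (509 bp), Niban1 (525.5 bp) and Arhgef3 (532.5 bp). The peak beside the Sox2 gene, the only shared peak within 50 kb of it, thus lay at the limit itself.

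**Figure D1:**
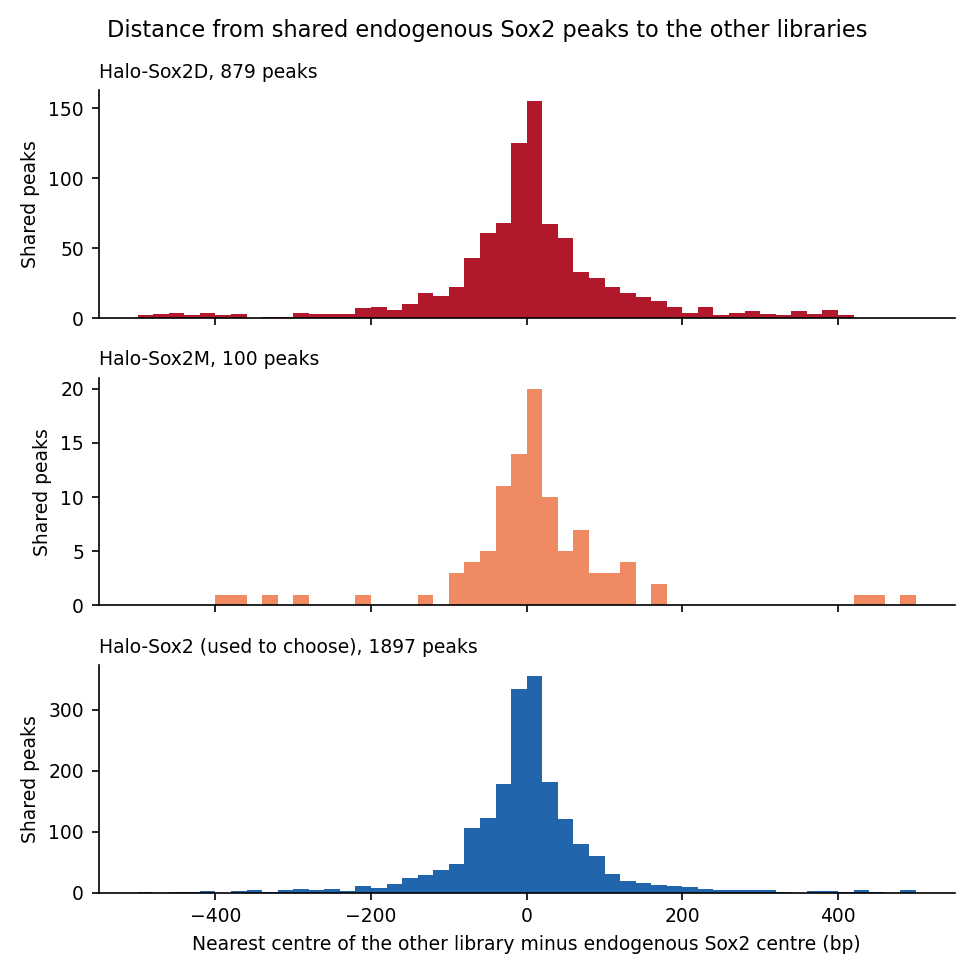
Distance in bp from the centre of each shared peak to the nearest centre of another library, as numbers of peaks per distance class. Halo-Sox2 distances, which the rule used, have a median of 33.5 bp, beside 44 bp for the 879 shared peaks with Halo-Sox2D and 35.5 bp for the 100 with Halo-Sox2M.

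Many shared peaks came in tight groups. Joined where centres lay within 500 bp, they formed 1080 places, of which 627 held 1 shared peak, 246 held 2, 109 held 3, 63 held 4 and the others up to 9. Another endogenous peak stood within 500 bp of 66.9% of shared peaks (64.8 to 69.0%), of 39.5% of the other endogenous peaks (38.0 to 40.9%) and of 47.7% of the endogenous list. Where there was a neighbour, its median distance was 33 bp for shared and 34 bp for other endogenous peaks. Places with a shared peak held 1.76 endogenous peaks on average, and the 3423 other endogenous places 1.30. Several peaks of 1 place can mark borders of 1 bound stretch, so peaks of a place are not independent. The rule used endogenous positions, and 1 Halo-Sox2 centre can make several neighbouring endogenous peaks shared. These shares of grouped peaks are therefore a description.

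Halo-Sox2D accompanied shared peaks more often than other endogenous peaks. A Halo-Sox2D centre stood within 500 bp of 879 shared peaks (46.3%, 44.1 to 48.6%), 1151 other endogenous peaks (25.8%, 24.5 to 27.1%) and 31.9% of the endogenous list. Among the 4362 Halo-Sox2 peaks with no endogenous peak the share was 13.4% (12.4 to 14.4%). Halo-Sox2M, whose list is far shorter, accompanied 100 shared peaks (5.27%, 4.35 to 6.37%), 78 other endogenous peaks (1.75%, 1.40 to 2.17%) and 2.8% of the endogenous list. Both mutants stood at 51 shared peaks, Halo-Sox2D alone at 828, Halo-Sox2M alone at 49 and neither at 969 (51.1%). The same mutant peak can accompany several shared peaks of a place, so these are not numbers of mutant peaks. The 3 fusions share tag and resin, which the endogenous library does not, and the part of this in the shares was not tested.

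The difference was also seen among places of like size. With 1 endogenous peak in the place, 32.1% of places with a shared peak (28.5 to 35.8%) had Halo-Sox2D, against 18.4% of other endogenous places (17.0 to 19.9%). With 2 peaks the shares were 44.4% (38.3 to 50.7%) at places with a shared peak and 30.9% (27.0 to 35.1%) at the others. With 3 or more they were 57.1% (50.4 to 63.6%) at places with a shared peak and 43.9% (37.5 to 50.5%) at the others, and these intervals overlap slightly at their ends. For Halo-Sox2M the shares with 1 peak were 3.83% at places with a shared peak and 1.15% at the others. With 3 or more peaks they were 6.19% (3.65 to 10.3%) at places with a shared peak and 3.62% (1.85 to 6.98%) at the others, with intervals that overlap. Over all sizes, 39.7% of places with a shared peak had Halo-Sox2D and 4.72% had Halo-Sox2M, against 21.9% and 1.37% of the other endogenous places.

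Halo-Sox2D centres lay about as near to shared peaks as to the rest. The median distance was 44 bp at the 879 shared peaks and 40 bp at the 1151 other endogenous peaks, and 53.6% of the shared ones and 55.9% of the others were within 50 bp. Halo-Sox2M centres had a median distance of 35.5 bp at shared peaks and 45.25 bp at the others. Within the rule's limit the share with Halo-Sox2D hardly moved with the distance to Halo-Sox2: it was between 45.4% and 48.5% in the 4 classes up to 250 bp and 40% (29.3 to 51.7%) at 250 to 500 bp. Outside the limit it was 35.5% at 500 to 1000 bp, 29.2% up to 10 kb and 25.0% farther away.

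Both shares moved with the density of peaks. Halo-Sox2D and Halo-Sox2M peaks count towards this density themselves, so higher shares in dense bins are partly set by its definition. In bins of 100 kb with 5 or more peaks of a library, 63.6% of shared peaks (59.9 to 67.1%) and 47.9% of other endogenous peaks (44.7 to 51.3%) had Halo-Sox2D. Without these bins the shares were 36.8% (34.2 to 39.6%) and 20.4% (19.07 to 21.7%), so shared peaks were also higher where peaks were sparse. In the few bins with 10 or more peaks the order turned, with 66.2% of 68 shared peaks (54.3 to 76.3%) and 75% of 72 other endogenous peaks (63.9 to 83.6%), and these intervals overlap. For Halo-Sox2M the shares without bins of 5 or more peaks were 3.43% (2.55 to 4.61%) at shared and 1.25% (0.938 to 1.67%) at other endogenous peaks. With no dense bin dropped, 17.7% of shared peaks had Halo-Sox2M. At a limit of 50 bp for the mutants in place of 500 bp, 24.8% of shared peaks had Halo-Sox2D.

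**Figure D2:**
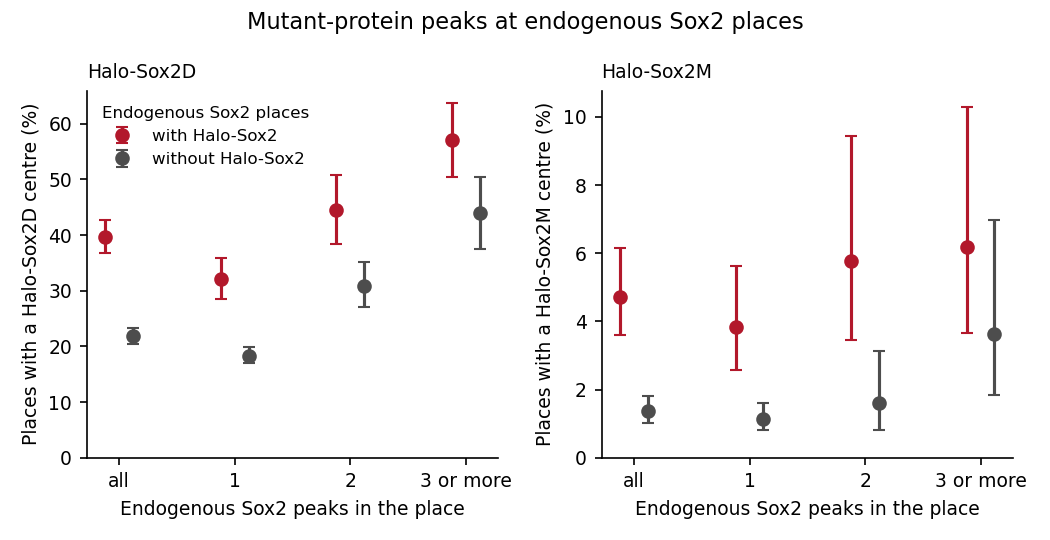
Percent of places with Halo-Sox2D and Halo-Sox2M, by number of endogenous peaks in the place, with 95% Wilson intervals over places. Places with a shared peak are above the other endogenous places at each size, for example 32.1% against 18.4% for Halo-Sox2D with 1 peak, and intervals overlap at 3 or more peaks for Halo-Sox2D and Halo-Sox2M.

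Shared peaks lay mostly away from gene starts. Promoter windows held 29 of them (1.53%, 1.07 to 2.19%), against 140 other endogenous peaks (3.13%, 2.66 to 3.69%), 201 Halo-Sox2 peaks with no endogenous peak (4.61%, 4.02 to 5.27%) and 2.66% of the endogenous list. The kept Halo-Sox2D list had 10.7% of its peaks there. Among shared peaks the promoter share was 1.71% with Halo-Sox2D and 1.38% without it, whereas among other endogenous peaks it was 5.56% with Halo-Sox2D and 2.29% without it. The nearest start was over 10 and up to 50 kb away for 39.5% of shared peaks and over 50 kb away for 29.3%, beside 39.7% and 28.3% of other endogenous peaks. The median distance was 22.9 kb for shared and 21.7 kb for other endogenous peaks.

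The gene annotation gave a like picture. At most 1 kb from an end of a protein-coding gene stood 5.54% of shared peaks (4.59 to 6.66%), 7.30% of other endogenous peaks (6.57 to 8.10%), 12.4% of Halo-Sox2 peaks with no endogenous peak (11.5 to 13.5%) and 6.77% of the endogenous list. The intervals of shared and other endogenous peaks overlap. With a limit of 5 kb the shares were 23.1% of shared and 22.3% of other endogenous peaks. Inside protein-coding genes lay 41.7% of shared peaks (39.5 to 43.9%), 43.8% of other endogenous peaks (42.4 to 45.3%) and 43.2% of the endogenous list, a difference within counting error. Exons and introns were not told apart.

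**Figure D3:**
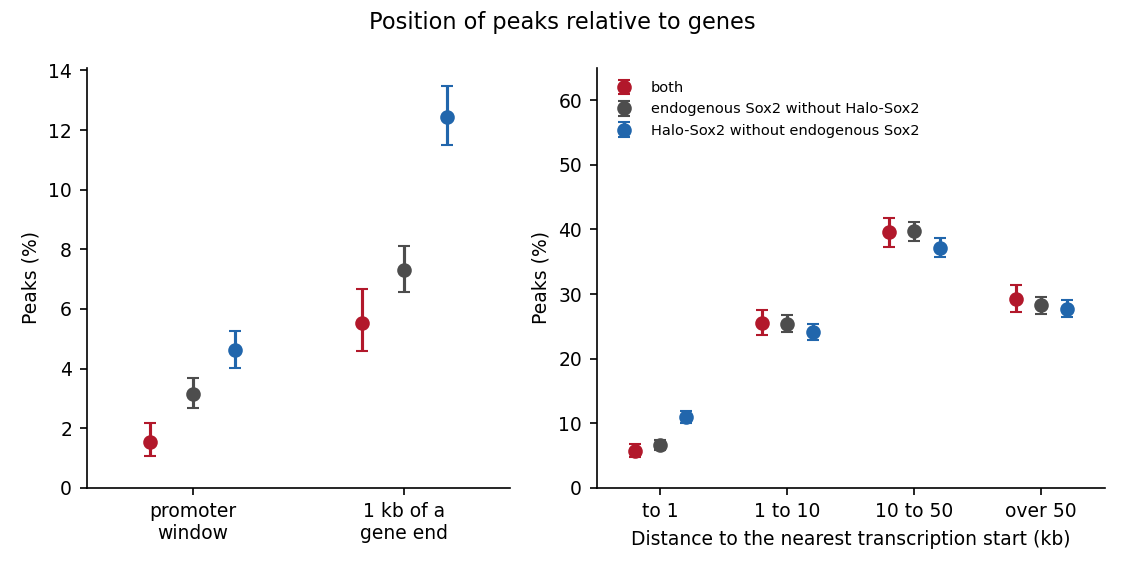
Position of shared peaks, other endogenous peaks and Halo-Sox2 peaks with no endogenous peak relative to genes, in percent of peaks with 95% Wilson intervals. Shared peaks are lowest in promoter windows (1.53%) and at gene ends (5.54%), and the sets are close at distances over 10 kb from a start.

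Of 21887 protein-coding genes, 7.79% had a shared peak in the gene or within 50 kb. The gene lists were chosen with earlier results of these data known, so their intervals are a description and no test. Those of the pluripotency, signalling, chromatin and neural lists lay above the 7.79% share. In the chosen lists it was 16 of 39 pluripotency genes (27.1 to 56.6%), 14 of 30 signalling genes (30.2 to 63.9%), 9 of 30 chromatin genes (16.7 to 47.9%), 6 of 30 neural genes (9.51 to 37.3%), 2 of 14 trophoblast genes, 2 of 20 housekeeping genes, 1 of 11 germ cell genes and 1 of 20 mesendoderm genes. An endogenous peak of any kind stood at 27.3% of all protein-coding genes, and at 34 of the pluripotency, 21 of the signalling, 18 of the chromatin and 12 of the neural genes, so these lists were also above genes at large in the whole endogenous list. Endogenous and Halo-Sox2 peaks both stood at 24 of the pluripotency genes, so 8 had endogenous and Halo-Sox2 peaks apart from each other. Without bins of 5 or more peaks 6 pluripotency genes had a shared peak (15.4%, 7.25 to 29.7%), beside 5.57% of all protein-coding genes. With peaks that overlap by at least 1 bp 10 had one (25.6%, 14.6 to 41.1%), beside 2.94% of all.

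**Figure D4:**
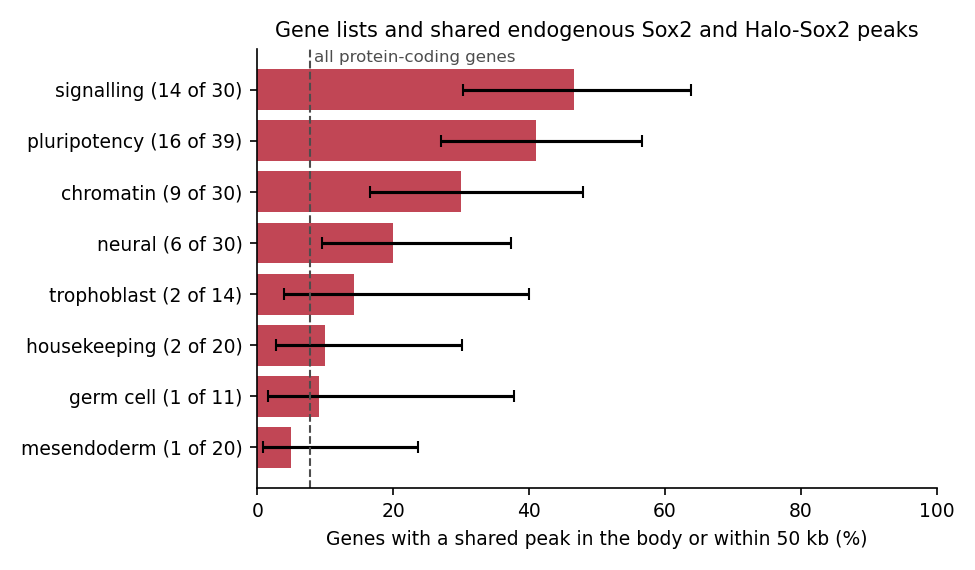
Percent of genes of each list with a shared peak in the gene or within 50 kb, with 95% Wilson intervals over genes and a line at the 7.79% of all protein-coding genes. Pluripotency (16 of 39) and signalling genes (14 of 30) stand highest, and mesendoderm genes (1 of 20) lowest. The lists were chosen with earlier results of these data known.

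Among core pluripotency factors, Pou5f1 held 7 Halo-Sox2D, 0 Halo-Sox2M, 3 Halo-Sox2 and 10 endogenous Sox2 peaks in its window of 50 kb. Its 5 shared peaks lay 0.866 to 1.27 kb from the gene (chr17:35506032-35510777), and all 5 had a Halo-Sox2D centre, at 5.5 bp for the peak at 35505161 to 35505171. They form 1 place with 1 Halo-Sox2D peak, so these are not separate matches. Nanog, with 5 Halo-Sox2D, 0 Halo-Sox2M, 3 Halo-Sox2 and 4 endogenous peaks, differed from Pou5f1 in that all 4 endogenous peaks were shared and none had Halo-Sox2D. Sox2 had 3 Halo-Sox2D, 1 Halo-Sox2M, 3 Halo-Sox2 and 4 endogenous peaks, of which 1 was shared. Esrrb, an orphan nuclear receptor of the naive state, had 3 shared peaks inside the gene out of 13 endogenous peaks, with Halo-Sox2 centres at 7 to 13.5 bp and no Halo-Sox2D centre within 500 bp.

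Klf2 and Klf4 are zinc finger factors of the naive state. Klf2 had 4 of 5 endogenous peaks shared, 2 of them with Halo-Sox2D and 1 with Halo-Sox2M, the nearest 2.69 kb from the gene. Klf4 had both of its endogenous peaks shared, 49.6 kb from the gene and 1.5 bp from Halo-Sox2 at the nearest, with no mutant peak by them. Jam2, which encodes a junction protein, had 5 of 6 endogenous peaks shared, all 5 with Halo-Sox2D, about 4.50 to 4.82 kb from the gene. Sall1, a zinc finger factor gene, had 4 shared peaks 23.5 kb and more away, none with Halo-Sox2D.

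Utf1, a chromatin protein of undifferentiated cells, and Zscan10, a zinc finger factor, each had 3 endogenous peaks and all 3 were shared, without a mutant. The nearest was 0.585 kb beyond Utf1, and those of Zscan10 were inside the gene. Trim28, which encodes a corepressor of retroelements, had 3 shared peaks of 4, also without a mutant. Mybl2, a cell cycle factor gene, had 2 of 3 shared peaks with Halo-Sox2D, and Prdm14, a repressor of differentiation genes, both of 2. The 2 assigned to Mybl2 lay 22.4 to 22.5 kb from it, inside the gene Ift52. The remaining pluripotency genes, named outside the naming rule, were Rif1 with 2 shared peaks and Mycn and Tcl1 with 1 each. Of the 46 shared peaks at the list, 17 had Halo-Sox2D (37.0%, beside 46.3% of all shared peaks) and 1 had Halo-Sox2M, and 6 of the 16 genes had a shared peak with Halo-Sox2D. These peaks are few and grouped and no interval was computed, so no difference from all shared peaks is claimed.

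Among signalling genes, Spry2, which encodes a feedback inhibitor of FGF signalling, had the largest number of shared peaks of all protein-coding genes, 15 of its 17 endogenous peaks. Its window held 9 Halo-Sox2D, 2 Halo-Sox2M and 11 Halo-Sox2 peaks, and 9 of the shared peaks had Halo-Sox2D and 2 had Halo-Sox2M. They fell into groups 40.4 to 40.5 kb and 30.7 to 32.6 kb from one end of the gene and 23.8 to 24.3 kb from the other. The group at 30.7 to 30.8 kb had no Halo-Sox2D centre within 500 bp, and in the group beyond the other end the shared peak at 105921040 to 105921056 had one at 5 bp.

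Fgfr2, an FGF receptor gene, had 1 Halo-Sox2D, 2 Halo-Sox2M, 3 Halo-Sox2 and 3 endogenous peaks in its window, and its 3 shared peaks, at 130264701 to 130264886 inside the gene, all had both mutants. Tcf7l1, a repressor of Wnt targets, had 3 shared peaks inside the gene, all with Halo-Sox2D. Lefty1 and Lefty2, which encode inhibitors of Nodal, share 3 peaks 4.24 to 4.28 kb from Lefty2, all with the same Halo-Sox2D peak. Id3, a target of BMP signals, had 3 shared peaks 1.55 to 1.62 kb from the gene, and Il6st, the gene of the LIF receptor subunit gp130, and Lif had 2 each. None of the shared peaks at Id3, Il6st and Lif had a mutant, as was so for 51.1% of all shared peaks. Those by Lif were 11.2 kb from it and nearer to Osm, at 5.36 kb. With the Lefty peaks counted once, 23 of the 39 shared peaks of the list had Halo-Sox2D (59.0%, beside 46.3% of all shared peaks), and without the peaks of Spry2 14 of 24 did. Here too the peaks are few and grouped, no interval was computed, and no difference is claimed.

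Chromatin genes showed both kinds as well. Jarid2, a Polycomb 2 cofactor gene, had 7 shared peaks inside the gene among 15 endogenous peaks. The 5 at 44751836 to 44752024 had Halo-Sox2D at 3.5 to 90 bp, and the pair at 44851586 to 44851684 had none within 5 kb. Phc1, a Polycomb 1 subunit gene, had 5 shared peaks, 4 of them 0.419 to 0.547 kb from the gene. These 4 had the same Halo-Sox2D peak at 2 to 79.5 bp. Mtf2, another Polycomb 2 cofactor gene, had 4 shared peaks inside the gene. All 4 had the same Halo-Sox2M peak and none had Halo-Sox2D, whose nearest centre was 718 bp away. Both shared peaks near Dnmt1, the maintenance DNA methyltransferase gene, had Halo-Sox2D, and both inside Tet2, a 5-methylcytosine oxidase gene, had no mutant. Eed, Kdm3a and Rnf2 had 1 each, and of these the one at Rnf2 had Halo-Sox2D. Those of Eed and Rnf2 stood 44.0 and 43.8 kb away, and that of Rnf2 was nearer to Niban1.

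Among neural genes, which encode transcription factors, En2 had 6 shared peaks. However, they stood 37.8 to 39.7 kb away around the start of the neighbouring gene Cnpy1, and 5 of them had the same Halo-Sox2D peak. Rax, an eye field factor gene, had 5. The 3 about 10.1 kb away had the same Halo-Sox2D peak, and the pair 2.22 kb away had none within 16 kb. En1, Meis2 and Neurog1 had 1 each, with Halo-Sox2D at En1 and Neurog1 and without it inside Meis2. In other lists the genes were Fgfr2 and Ascl2 for trophoblast, Piwil2 for germ cells, and Sdha and Tubb5 for housekeeping. Apart from Fgfr2, these genes were distant from their nearest shared peak: 20.3 kb for Piwil2, 27.7 kb for Tubb5, 44.5 kb for Ascl2 and 49.1 kb for Sdha. The peaks of Piwil2, Tubb5 and Sdha were nearer to Slc39a14, Ppp1r18 and Zfp72. The peak by Ascl2 had no mutant.

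The places with most shared peaks are named by the nearest protein-coding gene, and apart from Spry2 none of these is a list gene. The richest lay inside Tnfsf11, the gene of the cytokine RANKL, at chr14:78288943-78289363, with 5 Halo-Sox2D, 0 Halo-Sox2M, 2 Halo-Sox2 and 9 shared endogenous peaks. Places nearest to Rybp, Vwa3b, Ly6c2, Mgat4e and Samd7 and inside Accsl held 7 each, and 8 places held 6. Of these 8, the 3 with most Halo-Sox2 peaks are named, nearest to Ahi1 and Spry2 and inside Abca4. Of the 10 places named, those at Accsl and Samd7 had no mutant peak, and the one near Ly6c2 had both mutants.

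Peaks of all 4 libraries met at 23 places. Beside Ly6c2 and Fgfr2, the 12 with most peaks were inside or nearest to Rab10, Chl1, Gm40469, Usp7, Tox3, Arhgap26, Zfp979, 9530057J20Rik, Ncoa7 and Sh3pxd2a. The place with Rab10 as the nearest gene, 137 kb away, held 5 Halo-Sox2D, 3 Halo-Sox2M, 3 Halo-Sox2 and 3 endogenous peaks, and the one inside Chl1, a neural adhesion molecule gene, 3 Halo-Sox2D, 2 Halo-Sox2M, 3 Halo-Sox2 and 3 endogenous peaks. The place by Arhgap26 is also the one 0.073 to 0.442 kb from Spry4, another FGF feedback inhibitor gene, and held 4 Halo-Sox2D, 1 Halo-Sox2M, 1 Halo-Sox2 and 2 endogenous peaks. Of the 23 places, 15 (65.2%) were in bins with 5 or more peaks of a library, against 35.2% of the 406 places with Halo-Sox2D as the only mutant and 16.1% of the 623 places with neither mutant. Mutant peaks count towards this density themselves, which partly sets this order. Some of the 23 places lay in gene families of near-identical copies, such as zinc finger clusters, where reads can map to several positions. The part of this was not tested.

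**Figure D5:**
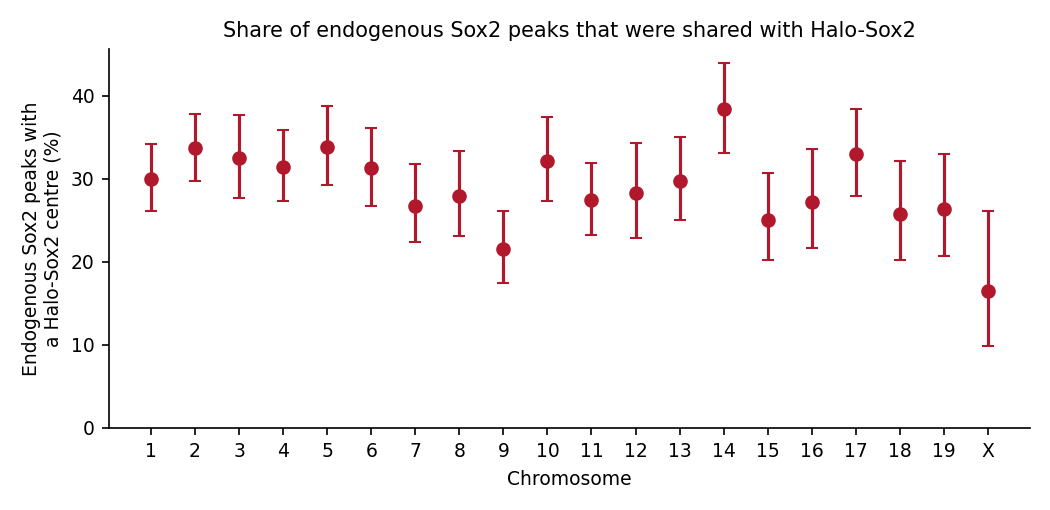
Percent of endogenous peaks that are shared peaks, on each chromosome that holds a shared peak, X included. The percent is highest on chromosome 14 (38.4%) and lowest on X (16.5%).

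The shared fraction varied moderately between chromosomes. It was 38.4% of 310 endogenous peaks on chromosome 14 (33.1 to 43.9%), 21.5% of 344 on chromosome 9 (17.5 to 26.2%) and 16.5% of 79 on X (9.88 to 26.1%), and for the other autosomes it lay between these. The share with Halo-Sox2D was higher among shared than among other endogenous peaks on 19 of 19 autosomes, from 62.2% against 25.1% on chromosome 14 to 32.7% against 30.3% on chromosome 19. Chromosome 14 holds Spry2 and Tnfsf11.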

How the data were processed

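Sox2 was mapped by ChIP-exo in 4 libraries, 1 per group. The submitters' processing notes name Bowtie2 and the build mm10. The sources used here do not give the peak caller, its threshold or any read filter. For each library the authors deposited a list of chromosome, start and end with no score or count, so coordinates are the only values. Shares were computed in Python 3.11.15 with numpy 2.4.6, pandas 2.3.3 and scipy 1.17.1, with 95% Wilson intervals. The distance search was tested on simulated data. Peak centres were compared within 500 bp, and endogenous centres within 500 bp were joined into places. Gene positions, promoter windows and microRNAs came from RefSeq tables of GRCm38.p6, whose chromosomes have the coordinates of mm10. Promoter windows were in the table for 17492 of 21887 protein-coding genes. All 191 symbols of the gene lists matched. The shared peaks and gene lists were chosen with earlier results of these data known. Named were list genes by number of shared peaks (up to 12 for pluripotency and 8 for other lists), the 10 places with most shared peaks, 12 with all libraries, 12 promoters with list genes first, and the 5 peaks nearest to either side of the limit. Stat3, Spry4 and Cnpy1 entered by promoter or place. A few list genes are not reported here. Alternatives were other distances, bins, windows and gene assignments.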

Additional observations from a re-analysis of the deposited data

How the results depend on the processing

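Of 95 recomputed values 57 stayed within 1 interval or 1.5 times of the reported one and 38 moved. Shared peaks had Halo-Sox2D more often than other endogenous peaks in 12 of 12 alternatives, and Halo-Sox2M likewise in 12 of 12. They lay at gene ends less often in 10 of 12, the exceptions being an overlap of at least 1 bp (6.93% against 6.76%) and a limit of 5 kb (23.1% against 22.3%). They lay inside genes less often in 10 of 10, and had another endogenous peak within 500 bp more often in 8 of 8. The last count rests on endogenous positions, which the rule used, and is a description.

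With a Halo-Sox2 centre within 50 bp there were 1177 shared peaks. With an overlap of at least 1 bp there were 404, of which 6.93% had Halo-Sox2M, 36.6% lay inside genes and 60.1% had another endogenous peak, and 10 pluripotency genes had one. Without bins of 5 or more peaks there were 1224, of which 36.8% had Halo-Sox2D, 3.43% had Halo-Sox2M, 4.49% lay at gene ends and 57.4% had another endogenous peak, and 6 pluripotency genes had one. With no bin dropped, 53.7% had Halo-Sox2D, 17.7% had Halo-Sox2M, 36.7% lay inside genes and 71.2% had another endogenous peak. Joined into places, 39.7% had Halo-Sox2D. With mutant centres within 50 bp, 100 bp or an overlap of 1 bp, the Halo-Sox2D share was 24.8%, 34.8% and 8.80%, and the Halo-Sox2M share 3.06%, 4.32% and 1.32%. The gene end share was 11.1% at 2 kb, 23.1% at 5 kb and 10.4% for all annotated genes, of which 50.2% of shared peaks lay inside one. A gene window of 20 kb gave 3 neural, 0 mesendoderm, 1 trophoblast, 0 germ cell and 0 housekeeping genes. A window of 100 kb gave 2 germ cell and 4 housekeeping genes. By nearest gene there were 0 mesendoderm, 1 trophoblast and 0 housekeeping genes. Beyond the choices that themselves set a distance or window, the cause was not tested.

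A stricter threshold on peaks could not be tried without scores. No paired analysis was possible because each group has 1 library. Peak lists without heights cannot separate weaker binding from lower depth, and the Halo-Sox2M list is short, so an absent mutant peak is not an absent protein.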
